A study of Homo sapiens with 12 samples.

Results

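Cyclin-dependent kinase inhibitors are the proteins that hold back the kinases of the cell cycle. The genes described here are the 10 that carry the symbols CDKN1A, CDKN1B, CDKN1C, CDKN2A, CDKN2B, CDKN2C, CDKN2D, CDKN3, CDK2AP1 and CDK2AP2. They are defined by their symbols, and 9 of the 10 were rows of the count table of 16389 genes. CDKN1C is not analysed here. All 9 listed genes passed the filter on low counts in every comparison.

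The study examined how high glucose changes gene expression in HepG2 cells, an established human liver cancer line, and what valproic acid (VPA), an inhibitor of histone deacetylases used against epilepsy, does under both glucose levels. RNA was sequenced from 4 groups of 3 libraries. Cells of the low glucose group (LG) were kept for 48 h in medium with 5.5 mM glucose, and those of the high glucose group (HG) for 48 h in medium with 20 mM glucose. The LGV group had low glucose and the HGV group had high glucose, and both were then given 1 mM VPA for a further 12 h. All 12 libraries came from 1 cell line, with no stated genetic change. The labels do not say whether the untreated cells were collected before or after these 12 h, so VPA and culture time cannot be told apart if they were collected before. Nor do they say whether the 3 libraries of a group came from separate cultures, and the p-values measure only the spread between these libraries.

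A cell divides when cyclins switch on their partner kinases, which phosphorylate the retinoblastoma protein (RB1) and free E2F factors to transcribe the genes of DNA synthesis. The CIP/KIP family (CDKN1A, or p21; CDKN1B, or p27; CDKN1C, or p57) binds cyclin-kinase complexes, above all those of CDK2. The INK4 family (CDKN2A, or p16; CDKN2B, or p15; CDKN2C, or p18; CDKN2D, or p19) binds CDK4 and CDK6 and keeps D cyclins from them. CDKN3 is a phosphatase that acts on CDK2, while CDK2AP1 and its relative CDK2AP2 were named for binding CDK2, and CDK2AP1 is also a subunit of the NuRD complex, which carries histone deacetylases. CDKN1A is well known to respond to inhibitors of histone deacetylases in many cell lines.

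Between 29798442 and 45572694 reads per library were counted on the genes of the table, with TMM factors from 0.879 to 1.095. Levels are given as CPM (counts scaled to the TMM-adjusted library size), in the order of replicates 1, 2 and 3. Of 8 genes that mark liver cells, 8 were listed, and albumin (ALB) had mean levels of 19382 to 26897 CPM in the 4 groups. Their summed level was 47372 to 52708 CPM in LG, 46549.7 to 54919 CPM in HG, 36499 to 37159 CPM in LGV and 41319.8 to 54912 CPM in HGV. Of 6 markers of other cells, PTPRC, PECAM1, CD68 and KRT7 were not among the genes listed, and COL1A1 and ACTA2 were. The summed level of these 6 markers was 17.4 to 20.2 CPM in LG, 36.3 to 39.2 CPM in HG, 11.8 to 12.2 CPM in LGV and 20.7 to 27.03 CPM in HGV, most of it from ACTA2, and the part of either list in the results on the inhibitors was not tested. In bulk RNA, fewer cells with a transcript and less of it in each cell cannot be told apart.

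The promoters of 5 inhibitor genes are printed first, because these are the genes with the largest called changes (CDKN2D, CDK2AP1 and CDK2AP2), a called rise with VPA at both glucose levels (CDKN2C) or the best known link to histone deacetylase inhibition (CDKN1A). Each runs from 250 bases before to 50 bases after a RefSeq start site (table of build GRCh38) and was placed on GRCh37, the build of the counts, by exact match, so it holds promoter DNA and the first bases of the transcript. Where a gene had several RefSeq windows, the one with the most matches is shown. Capitals mark the GC box GGGCGG and the CCAAT box, searched for on both strands, so that CCGCCC is a GC box read from the other strand. Matches that overlap run together in the capitals.
CDKN2D, chr19:10679606-10679905, minus strand: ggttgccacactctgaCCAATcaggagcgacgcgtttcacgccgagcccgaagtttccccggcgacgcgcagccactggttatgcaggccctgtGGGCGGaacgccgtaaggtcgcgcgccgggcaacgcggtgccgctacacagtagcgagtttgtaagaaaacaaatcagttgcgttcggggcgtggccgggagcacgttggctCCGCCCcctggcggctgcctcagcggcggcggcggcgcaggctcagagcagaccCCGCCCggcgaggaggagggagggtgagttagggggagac
CDKN2C, second of its 3 RefSeq windows, chr1:51434128-51434427, plus strand: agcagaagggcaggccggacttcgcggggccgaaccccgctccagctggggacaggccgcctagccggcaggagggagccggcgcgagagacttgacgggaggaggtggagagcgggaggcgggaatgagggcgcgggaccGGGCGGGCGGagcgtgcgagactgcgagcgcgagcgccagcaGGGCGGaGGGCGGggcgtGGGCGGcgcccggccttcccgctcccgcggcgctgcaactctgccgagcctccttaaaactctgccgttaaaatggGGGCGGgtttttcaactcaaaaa
CDK2AP1, first of its 3 RefSeq windows, chr12:123755749-123756048, minus strand: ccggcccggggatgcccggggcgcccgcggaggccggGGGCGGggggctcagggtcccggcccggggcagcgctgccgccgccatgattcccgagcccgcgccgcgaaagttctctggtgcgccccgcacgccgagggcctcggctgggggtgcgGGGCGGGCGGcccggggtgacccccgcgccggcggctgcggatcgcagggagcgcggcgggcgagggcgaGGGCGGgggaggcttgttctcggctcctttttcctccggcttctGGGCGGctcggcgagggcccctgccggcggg
CDK2AP2, chr11:67275584-67275883, minus strand: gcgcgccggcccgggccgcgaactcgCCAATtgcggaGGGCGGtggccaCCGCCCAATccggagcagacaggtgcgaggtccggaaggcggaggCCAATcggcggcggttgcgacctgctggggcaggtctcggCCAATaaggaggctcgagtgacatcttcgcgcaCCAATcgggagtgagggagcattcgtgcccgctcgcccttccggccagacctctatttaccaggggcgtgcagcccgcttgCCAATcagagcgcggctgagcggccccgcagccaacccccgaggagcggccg
CDKN1A, chr6:36646241-36646540, plus strand: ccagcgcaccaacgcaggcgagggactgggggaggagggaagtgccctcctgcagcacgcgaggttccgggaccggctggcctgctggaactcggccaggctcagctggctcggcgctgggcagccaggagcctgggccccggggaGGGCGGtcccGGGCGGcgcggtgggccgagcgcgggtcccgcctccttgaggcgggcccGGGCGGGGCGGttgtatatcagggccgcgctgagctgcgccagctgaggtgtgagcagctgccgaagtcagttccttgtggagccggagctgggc
The GC box occurred at least once in 45.0% of the 35116 promoters of that table, the CCAAT box in 34.6%, and TTTGAA, the core of the cell cycle element CHR, in 15.2%. CDKN2D held 3 GC boxes, a number reached by 15.8% of promoters, and 1 CCAAT box. The CDKN2C window shown held 6 GC boxes, a number reached by 2.86% of promoters, and its other windows held 0 and 1. The CDK2AP1 window shown held 5 (5.14%), and its other windows held 1 and 0. Both windows shown were picked for having the most matches, while the percentages count single promoters without such a choice. The percentages therefore cannot say how unusual CDKN2C and CDK2AP1 are. CDKN1A held 4 GC boxes (9.06%). CDK2AP2 held 6 CCAAT boxes, all on the sense strand, a number reached by 0.122% of promoters, beside 2 GC boxes. TTTGAA was found in none of these 5 windows and in 1 other inhibitor promoter, that of CDKN3, on the antisense strand. A match describes the letters of the window and does not show a site in use. On GRCh37 the other inhibitor genes listed lie at chr12:12838432-12875303 (CDKN1B, plus strand), chr9:21967751-21995300 (CDKN2A, minus strand), chr9:22002902-22009304 (CDKN2B, minus strand) and chr14:54863567-54886936 (CDKN3, plus strand).

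In high glucose without VPA, only genes of the CDK2-associated pair passed the threshold. Of 9 genes tested in HG against LG, 0 were higher and 2 lower (CDK2AP1 and CDK2AP2) at a false discovery rate (FDR) of 0.05 or less in edgeR's quasi-likelihood F test, where 12.0% of all 15452 genes tested were called higher and 12.7% lower. DESeq2's Wald test also called 0 higher, and 0 of the 9 were higher at an unadjusted p under 0.05. Their median log2 fold change was -0.05, against 0.01 over all genes. In LGV against LG, 4 of 9 were higher, which were the 4 INK4 genes, and 2 were lower, CDK2AP1 and CDK2AP2. The background was 21.7% of 15944 genes called higher and 19.9% lower, and the medians were 0.55 for the inhibitors and -0.01 for all genes. In HGV against HG, 5 of 9 were higher (CDKN1A, CDKN2C, CDKN2D, CDKN3 and CDK2AP2) and 1 was lower (CDK2AP1), with 25.8% of 16188 genes called higher and 20.2% lower and medians of 0.44 and 0.02. In HGV against LGV, 1 of 9 was higher (CDKN3) and 5 were lower (CDKN1A, CDKN2A, CDKN2B, CDK2AP1 and CDK2AP2), with 21.2% of 16208 genes called higher and 19.5% lower and medians of -0.53 and 0.01. The 2 comparisons with VPA share no library, nor do the 2 with glucose, while each VPA comparison shares libraries with each glucose comparison.

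**Figure D1:**
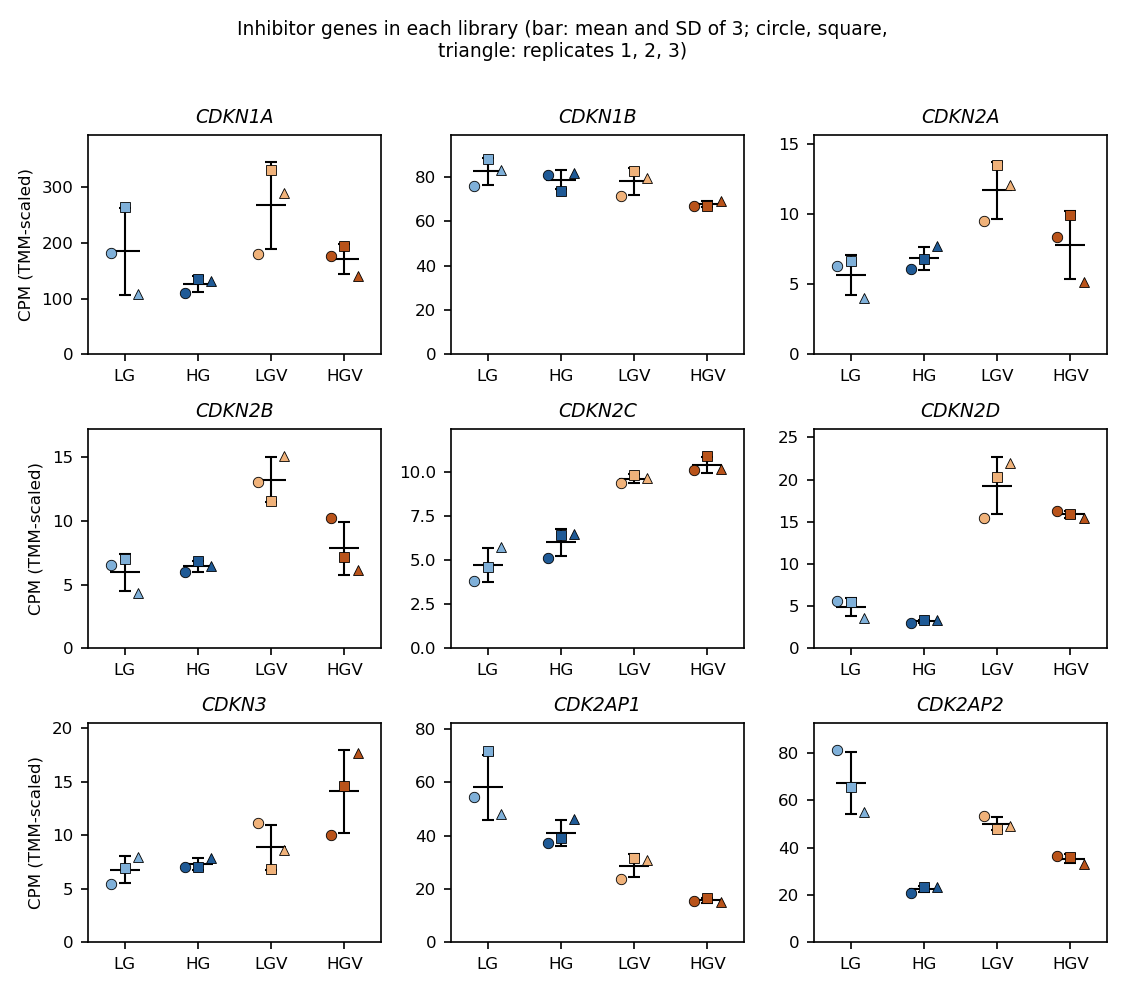
Level of each of the 9 listed inhibitor genes in every library (y axis, TMM-scaled CPM from 0; x axis, the 4 groups), with the mean and SD of 3 libraries as bars. The VPA groups of CDKN2D (15.5 to 21.9 CPM) lie far above its untreated groups (3.01 to 5.57 CPM), CDK2AP1 steps down from LG through HG and LGV to HGV, and CDK2AP2 is lowest in HG.

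**Figure D2:**
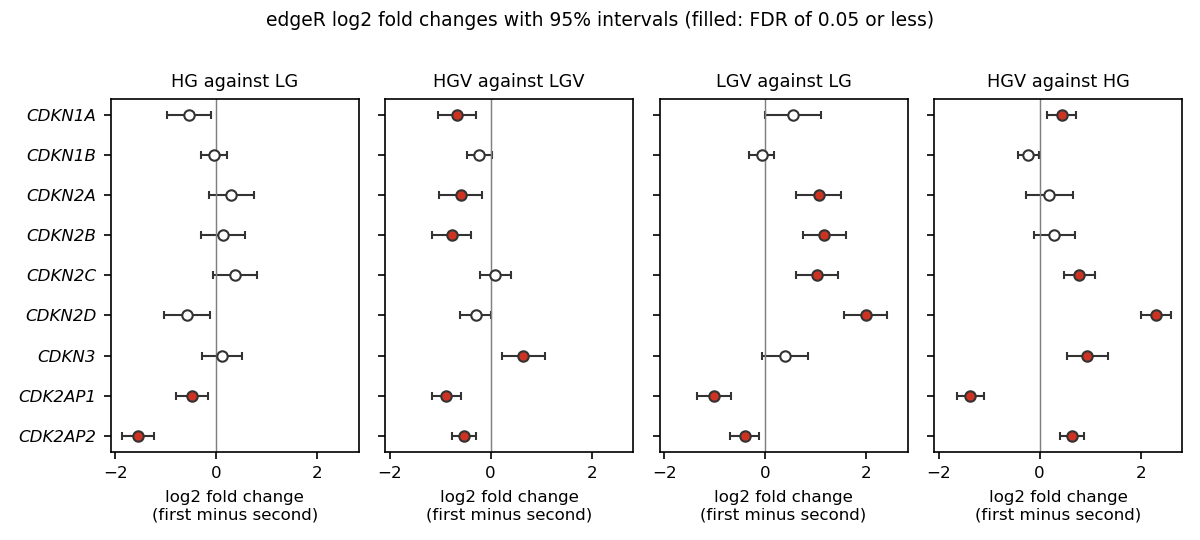
edgeR log2 fold changes (x axis, first group minus second) of the 9 genes in the 4 comparisons, with 95% intervals as bars and filled points for an FDR of 0.05 or less. In both glucose comparisons CDK2AP1 and CDK2AP2 are filled and left of 0, and in both VPA comparisons CDKN2C and CDKN2D are filled and right of 0.

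The CIP/KIP genes gave 1 called rise with VPA and 1 called fall with glucose, both of CDKN1A. CDKN1A, which halts the cycle after DNA damage, stood at 183, 264 and 108 CPM in LG and at 109.8, 136 and 132 CPM in HG. With VPA it reached 180.3, 332 and 291 CPM in LGV and 177, 194 and 142 CPM in HGV. The LG libraries were scattered, with a coefficient of variation of 42.1%, and overlapped both the HG and the LGV libraries, whereas every HGV library lay above every HG library. The rise in HGV against HG was 1.36-fold (log2 0.44, SE 0.13, edgeR FDR = 0.0151), and it lost its call in 1 fit of 12 libraries (edgeR FDR = 0.139) and without HG replicate 1 (edgeR FDR = 0.0721). In LGV against LG the log2 fold change was 0.55 (SE 0.26, edgeR FDR = 0.107), which was not called, but it was called without LG replicate 2 at 0.89 and without LGV replicate 1 at 0.78, and was 0.29 without LG replicate 3 and 0.36 without LGV replicate 2, with no call. The difference between HGV and LGV was called, at 1.59-fold lower in HGV (log2 -0.67, SE 0.18, edgeR FDR = 0.00655), although the libraries overlapped. For HG against LG the log2 fold change of -0.53 (SE 0.21, edgeR FDR = 0.0667) missed the threshold. It was -0.16 without LG replicate 2 (edgeR FDR = 0.556), and it was called without LG replicate 3 at -0.80 (edgeR FDR = 0.000336) and without HG replicate 2 at -0.60 (edgeR FDR = 0.0409).

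CDKN1B, the inhibitor that accumulates in resting cells, was called in none of the comparisons. It stood at 75.8, 88.2 and 83.3 CPM in LG, 80.6, 73.8 and 81.8 CPM in HG, 71.2, 82.8 and 79.7 CPM in LGV and 66.9, 66.7 and 69.1 CPM in HGV. The 3 HGV libraries were the lowest of the 12, below every library of HG and LGV. The 95% interval of the log2 fold change was -0.30 to 0.21 for HG against LG and -0.32 to 0.18 for LGV against LG. For HGV against HG the estimate was -0.22 (SE 0.10, edgeR FDR = 0.0780), and DESeq2's Wald test called it at -0.26 (DESeq2 FDR = 0.0465).

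Of the INK4 genes, 4 of 4 were called higher with VPA in low glucose, where 21.7% of all genes tested were. In high glucose 2 of 4 were, beside 25.8% of all genes tested. The test of a different VPA response at the 2 glucose levels called none of them (edgeR FDR = 0.227 to 0.777). CDKN2D, which binds CDK4 and CDK6 and normally rises and falls with the cycle, had the largest VPA response of the inhibitors. It was at 5.57, 5.51 and 3.65 CPM in LG and 3.01, 3.32 and 3.33 CPM in HG. After VPA it was at 15.5, 20.4 and 21.9 CPM in LGV and 16.3, 16.0 and 15.5 CPM in HGV. Every library with VPA lay far above every library without it. The rise was 3.96-fold in low glucose (log2 1.99, SE 0.20, edgeR FDR = 2.45e-06) and 4.92-fold in high glucose (log2 2.30, SE 0.14, edgeR FDR = 8.64e-08). The glucose comparisons gave log2 fold changes of -0.58 without VPA (SE 0.22, edgeR FDR = 0.0580) and -0.30 with it (SE 0.14, edgeR FDR = 0.111), neither of them called. The HG and LG libraries did not overlap, and the glucose difference without VPA was called by DESeq2's Wald test (-0.58, DESeq2 FDR = 0.0472), in 1 fit of 12 libraries and without LG replicate 3 (-0.76). Without LGV replicate 1 the difference between HGV and LGV was called as well, at -0.43 (edgeR FDR = 0.0153).

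CDKN2C also rose with VPA at both glucose levels. It stood at 3.81, 4.59 and 5.77 CPM in LG and 5.14, 6.43 and 6.50 CPM in HG, and at 9.36, 9.84 and 9.69 CPM in LGV and 10.1, 10.9 and 10.2 CPM in HGV. The 6 VPA libraries were close together and all above the 6 without VPA. The rise was 2.04-fold in low glucose (log2 1.03, SE 0.19, edgeR FDR = 0.000587) and 1.73-fold in high glucose (log2 0.79, SE 0.14, edgeR FDR = 0.000720). Glucose gave log2 fold changes of 0.37 (95% interval -0.07 to 0.80) without VPA and 0.10 (-0.21 to 0.40) with it, and neither was called, although every HGV library lay just above every LGV library.

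CDKN2A and CDKN2B are neighbours on chromosome 9 and encode p16 and p15. CDKN2A also encodes p14ARF from another start, and its count holds the transcripts of both. CDKN2A was at 6.32, 6.69 and 4.03 CPM in LG and 6.09, 6.79 and 7.70 CPM in HG, then at 9.51, 13.5 and 12.1 CPM in LGV and 8.40, 9.94 and 5.18 CPM in HGV. CDKN2B was at 6.58, 6.99 and 4.31 CPM in LG and 5.99, 6.88 and 6.44 CPM in HG, then at 13.1, 11.6 and 15.1 CPM in LGV and 10.2, 7.20 and 6.18 CPM in HGV. For both genes every LGV library lay above every LG library, and the HGV libraries reached down into the range of HG. In low glucose CDKN2A rose 2.08-fold with VPA (log2 1.06, SE 0.21, edgeR FDR = 0.00102) and CDKN2B 2.25-fold (log2 1.17, SE 0.20, edgeR FDR = 0.000286). In high glucose the log2 fold changes were 0.19 (95% interval -0.27 to 0.66) for CDKN2A and 0.29 (-0.12 to 0.69) for CDKN2B, with no call. HGV was lower than LGV for CDKN2B (log2 -0.77, SE 0.18, edgeR FDR = 0.00270) and for CDKN2A (log2 -0.59, SE 0.20, edgeR FDR = 0.0273). The CDKN2A call was lost without LGV replicate 2 (-0.48), LGV replicate 3 (-0.57), HGV replicate 1 (-0.64) or HGV replicate 3 (-0.37), and with library size as the only scaling (-0.50).

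The transcripts of CDKN2A and CDKN2B share some sequence. Of the 929 windows of 50 bases, the read length, in the canonical CDKN2A transcript, 31 (3.34%) also occurred in CDKN2B, so that reads from these windows cannot be assigned to 1 of them. The antisense RNA CDKN2B-AS1 covers 15.3% of all annotated exon bases of CDKN2A and none of its canonical transcript, and the study does not state whether strand was used in counting. With 15 to 37 reads per library it was called once, as a fall in HGV against HG (log2 -0.79, SE 0.29, edgeR FDR = 0.0407).

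CDKN3, the phosphatase, rose with VPA in high glucose and was higher in HGV than in LGV. It was at 5.50, 6.96 and 7.94 CPM in LG and 7.01, 7.03 and 7.92 CPM in HG, and at 11.1, 6.88 and 8.62 CPM in LGV and 10.0, 14.6 and 17.7 CPM in HGV. Every HGV library was above every HG library, while HGV replicate 1 was below LGV replicate 1. The rise in HGV against HG was 1.93-fold (log2 0.95, SE 0.19, edgeR FDR = 0.00132), and the log2 fold change of LGV against LG was 0.39 (95% interval -0.06 to 0.84), with no call. HGV against LGV gave a log2 fold change of 0.65 (SE 0.20, edgeR FDR = 0.0155), which lost its call without LGV replicate 2 (0.50) or HGV replicate 3 (0.46). The log2 fold change of HG against LG was 0.12 (95% interval -0.27 to 0.52), with no call.

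CDK2AP1 fell in all 4 comparisons, with high glucose and with VPA. It stood at 54.6, 71.7 and 48.0 CPM in LG, at 37.03, 39.3 and 46.3 CPM in HG, at 23.9, 31.5 and 30.8 CPM in LGV and at 15.4, 16.7 and 15.1 CPM in HGV. The 4 groups did not overlap at all. With VPA it was 2.01-fold lower in low glucose (log2 -1.005, SE 0.16, edgeR FDR = 0.000131) and 2.59-fold lower in high glucose (log2 -1.37, SE 0.12, edgeR FDR = 2.01e-06). Between glucose levels, CDK2AP1 was 1.84-fold lower in HGV than in LGV (log2 -0.88, SE 0.14, edgeR FDR = 8.27e-05). It was 1.40-fold lower in HG than in LG (log2 -0.48, SE 0.15, edgeR FDR = 0.0272). This last call was lost with library size as the only scaling (-0.38) and without LG replicate 1 (-0.51), LG replicate 2 (-0.28), HG replicate 1 (-0.40) or HG replicate 2 (-0.47). MTRFR, listed under its older symbol C12orf65, lies on the opposite strand and covers 24.2% of all annotated exon bases of CDK2AP1 but none of its canonical transcript. It fell with VPA as well, by 0.76 in LGV against LG (edgeR FDR = 0.00100) and by 0.55 in HGV against HG (edgeR FDR = 0.00140) on the log2 scale, and its values for glucose were -0.06 without VPA and 0.11 with it, with no call. Its part in the CDK2AP1 counts was not tested.

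CDK2AP2 had the largest glucose response of the inhibitors. It stood at 81.0, 65.6 and 55.0 CPM in LG and 20.9, 23.4 and 23.2 CPM in HG, and at 53.2, 47.8 and 49.3 CPM in LGV and 36.5, 36.2 and 33.0 CPM in HGV. The groups did not overlap, and their order was LG, LGV, HGV and HG from the highest to the lowest. In high glucose it was 2.93-fold lower than in low glucose without VPA (log2 -1.55, SE 0.15, edgeR FDR = 1.08e-06) and 1.44-fold lower with VPA (log2 -0.53, SE 0.12, edgeR FDR = 0.00169). With VPA it was 1.56-fold higher in high glucose (log2 0.65, SE 0.11, edgeR FDR = 0.000391) and 1.33-fold lower in low glucose (log2 -0.41, SE 0.14, edgeR FDR = 0.0263). The fall in low glucose was not called with library size as the only scaling (-0.24) or without LG replicate 1 (-0.26), LGV replicate 2 (-0.38) or LGV replicate 3 (-0.38). Of the 860 windows of 50 bases in its canonical transcript, 22 (2.56%) also occurred in another gene.

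Whether VPA acted differently at the 2 glucose levels was tested as the interaction over 12 libraries. It called 7 of 16389 genes (0.0427%), and CDK2AP2 was 1 of them, the only inhibitor gene called. Its VPA response was higher in high glucose by 1.07 on the log2 scale (SE 0.18, edgeR FDR = 0.0374). The difference ran from 0.88 to 1.19 when single libraries were left out, but it missed the threshold in 9 of these 12 fits (edgeR FDR up to 0.170, without HG replicate 3) and with library size as the only scaling (1.01, edgeR FDR = 0.0708). CDKN2A and CDKN2B had interactions of -0.85 (95% interval -1.52 to -0.19, edgeR FDR = 0.293) and -0.87 (-1.47 to -0.27, edgeR FDR = 0.227), which were not called, so their VPA response was not shown to differ between glucose levels. The same holds for CDKN3 at 0.57 (95% interval -0.05 to 1.18), CDK2AP1 at -0.36 (-0.80 to 0.08), CDKN2D at 0.32 (-0.20 to 0.85), CDKN2C at -0.23 (-0.73 to 0.27), CDKN1B at -0.14 (-0.46 to 0.18) and CDKN1A at -0.09 (-0.78 to 0.60).

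**Figure D3:**
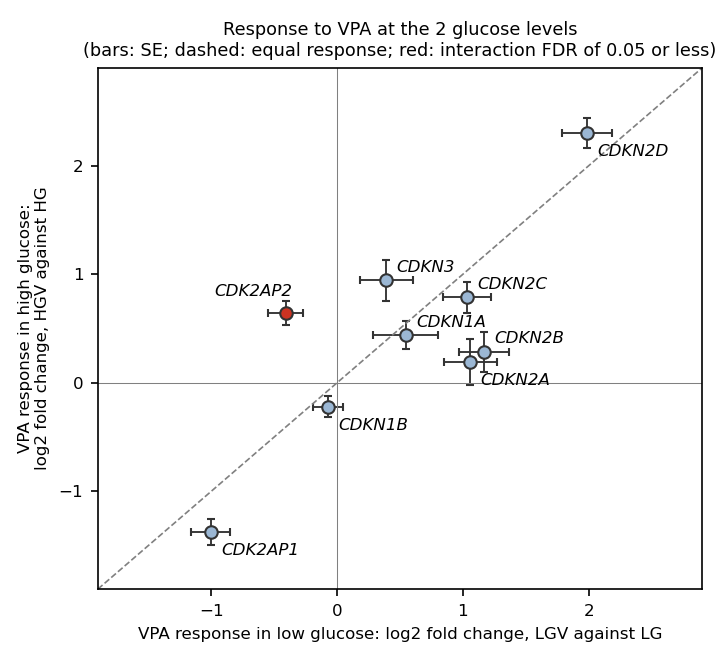
VPA response of each inhibitor gene in low glucose (x axis, log2 fold change of LGV against LG) and in high glucose (y axis, HGV against HG), with SE bars and a dashed line of equal response. CDK2AP2, in red for an interaction FDR of 0.05 or less, is left of 0 at -0.41 and above 0 at 0.65, and CDKN2D is farthest out at 1.99 and 2.30.

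Levels of different genes were compared only per length, as CPM per kb of the canonical transcript. CDKN1A was the highest of the inhibitors in all 4 groups (87.5 ± 36.8 CPM per kb in LG, 59.5 ± 6.62 in HG, 126 ± 37.1 in LGV and 80.7 ± 12.7 in HGV, SD, n = 3) and CDKN2B the lowest (1.55 ± 0.374, 1.67 ± 0.115, 3.44 ± 0.461 and 2.04 ± 0.544). In LG the order from high to low was CDKN1A, CDK2AP2, CDK2AP1, CDKN1B, CDKN3, CDKN2A, CDKN2C, CDKN2D and CDKN2B. Neighbours in it overlapped except CDK2AP2 and CDK2AP1, CDKN1B and CDKN3, and CDKN2D and CDKN2B. In HG the order was CDKN1A, CDKN1B, CDK2AP1, CDK2AP2, CDKN3, CDKN2A, CDKN2C, CDKN2D and CDKN2B, with overlap only between CDKN1B and CDK2AP1 and between CDKN2A and CDKN2C. In LGV it was CDKN1A, CDK2AP2, CDKN1B, CDK2AP1, CDKN2D, CDKN2A, CDKN3, CDKN2C and CDKN2B, and CDKN2D, CDKN2A, CDKN3 and CDKN2C overlapped each with the next. In HGV it was CDKN1A, CDK2AP2, CDKN1B, CDKN3, CDK2AP1, CDKN2D, CDKN2C, CDKN2A and CDKN2B, and CDKN3, CDK2AP1, CDKN2D and CDKN2C overlapped each with the next. CDKN2D was thus above only CDKN2B without VPA, at 3.45 ± 0.767 CPM per kb in LG and 2.26 ± 0.127 in HG, and it stood above 4 genes in LGV (13.5 ± 2.36) and above 3 in HGV (11.2 ± 0.277). The order depends on the length used. With all annotated exons as the length, CDKN1A stayed first in the 4 groups, CDKN2D moved to rank 3 in LGV and HGV, and CDKN2A took the last place in LG and LGV.

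**Figure D4:**
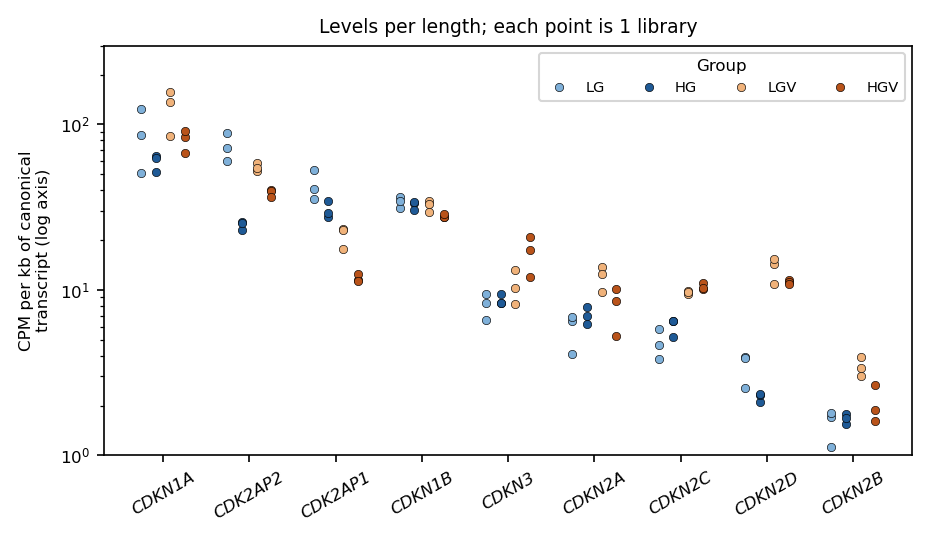
CPM per kb of canonical transcript (y axis, log scale) of the 9 inhibitor genes (x axis), with 1 point per library and a colour per group. CDKN1A spans the top and CDKN2B the bottom, and the points of CDKN2D split into untreated libraries around 2 to 4 and VPA libraries above 10 CPM per kb.

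The genes whose pattern over the 12 libraries was nearest to that of each inhibitor were found by the root mean square (RMS) difference of centred log2 CPM among 12480 genes. For CDKN2D they were DLX2 (0.130), RTN2 (0.176) and METRNL (0.176), against an RMS spread of 1.04 of CDKN2D itself. For CDKN2C they were BPNT1 (0.123), RAD51B (0.130) and B4GALNT4 (0.137). CDKN2A and CDKN2B had NEO1 in common (0.179 and 0.207), with UBALD2 and TMEM185A next to CDKN2A and RP11-1246C19.1 and PLEKHM3 next to CDKN2B. For CDK2AP1 they were MTHFD1L (0.105), PRDM11 (0.134) and EFNA1 (0.140), against an own spread of 0.697. For CDK2AP2 they were C17orf96 (0.166), WFS1 (0.173) and VASP (0.182), against 0.590. CDKN1A had IER5 (0.155), GABARAPL1 (0.186) and VPS37B (0.189), CDKN3 had POLR2J4 (0.182), DSCC1 (0.193) and FAM122A (0.194), and CDKN1B, with an own spread of only 0.128, had PEX13 (0.0579), HNRNPA1 (0.0599) and CNN3 (0.0665). These distances are a description over 12 libraries of 4 groups and carry no test.

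Among the cyclins and kinases that the inhibitors bind, the largest called changes were those of 2 D cyclins with VPA and of CDK1 with glucose. Of 11 tested genes, 2 were higher and 0 lower in HG against LG, 4 higher and 4 lower in LGV against LG, 5 higher and 3 lower in HGV against HG, and 3 higher and 0 lower in HGV against LGV. DESeq2's Wald test called 0 lower in both glucose comparisons as well, and 1 and 0 genes were lower at an unadjusted p under 0.05. Over all genes tested, 12.0% were higher and 12.7% lower in HG against LG, and 21.7% and 19.9% in LGV against LG. The shares were 25.8% and 20.2% in HGV against HG, and 21.2% and 19.5% in HGV against LGV. CCND3, a D cyclin that INK4 proteins keep from CDK4 and CDK6, rose 3.85-fold with VPA in low glucose (edgeR FDR = 1.02e-07) and 4.94-fold in high glucose (edgeR FDR = 1.27e-07). CCND2, another D cyclin, rose 3.97-fold and 4.87-fold (edgeR FDR = 2.03e-06 and 7.79e-07). CCND1, also a D cyclin, had means of 131 CPM in LG, 127 in HG, 146 in LGV and 164 in HGV. It was not called in LGV against LG (log2 0.16, edgeR FDR = 0.343) and rose in HGV against HG (log2 0.37, edgeR FDR = 0.00923). CDK4 and CDK6 fell in LGV against LG (log2 -0.76 and -0.39, edgeR FDR = 0.000129 and 0.0205). In HGV against HG CDK6 fell (log2 -0.57, edgeR FDR = 0.0214) and CDK4 was not called (log2 -0.21). CDK1, the kinase of mitotic entry, was 2.22-fold higher in HG than in LG (edgeR FDR = 0.000657) and 2.66-fold higher in HGV than in LGV (edgeR FDR = 1.34e-06). CCNA2, the cyclin of DNA synthesis and early mitosis, was 1.63-fold higher in HG than in LG (edgeR FDR = 0.0173), which lost its call without LG replicate 1 (edgeR FDR = 0.0929), and 1.74-fold higher in HGV than in LGV (edgeR FDR = 0.000345). With VPA, CCNA2 fell in low and in high glucose (log2 -0.70 and -0.58, edgeR FDR = 0.0194 and 0.00503). CCNE1, also on this list, rose with VPA at both levels (log2 1.72 and 1.63, edgeR FDR = 3.63e-07 and 5.03e-06). It was not called in the glucose comparisons. The median log2 fold changes of these 11 genes in the 4 comparisons, in the same order, were -0.02, 0.16, 0.37 and 0.08, beside 0.01, -0.01, 0.02 and 0.01 over all genes.

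Downstream of the kinases, E2F1 was higher in high glucose and rose with VPA there, and E2F2 rose with glucose and with VPA. Of 13 RB and E2F genes, 3 were higher and 0 lower in HG against LG (0 lower also by DESeq2 and at an unadjusted p under 0.05), 3 higher and 1 lower in LGV against LG, 5 higher and 1 lower in HGV against HG, and 4 higher and 2 lower in HGV against LGV, with medians of 0.04, 0.03, 0.12 and 0.03. The shares over all genes tested in HG against LG were 12.0% higher and 12.7% lower. In the other comparisons they were 21.2% to 25.8% higher and 19.5% to 20.2% lower. E2F1, an activating E2F, was at 18.9 CPM in LG, 33.7 in HG, 18.6 in LGV and 55.8 in HGV as means. It was 1.82-fold higher in HG than in LG (edgeR FDR = 0.00268) and 2.95-fold higher in HGV than in LGV (edgeR FDR = 3.71e-07). With VPA it rose 1.65-fold in high glucose (edgeR FDR = 0.00133), and in low glucose its log2 fold change was -0.01 (edgeR FDR = 0.976). The interaction of E2F1 was not called (0.75, edgeR FDR = 0.232). E2F2, of the same kind, rose 2.61-fold with glucose (edgeR FDR = 0.00505), 3.08-fold with VPA in low glucose (edgeR FDR = 0.00158) and 2.64-fold with VPA in high glucose (edgeR FDR = 2.63e-05). Its glucose call was lost without LG replicate 1 (log2 1.15, edgeR FDR = 0.0528), and the log2 fold change was 2.10 without LG replicate 3. RB1 rose 1.47-fold in LGV against LG (edgeR FDR = 0.00437) and also rose in HGV against HG (log2 0.45, edgeR FDR = 0.0137). E2F8, a repressive E2F, was 2.83-fold higher in HGV than in LGV (edgeR FDR = 0.000192). It was also higher in HG than in LG (log2 1.30, edgeR FDR = 0.00697) and in HGV than in HG (log2 0.70, edgeR FDR = 0.0125). Of 15 genes of mitosis, 6 were higher and 0 lower in HG against LG, 1 higher and 5 lower in LGV against LG, 1 higher and 4 lower in HGV against HG, and 10 higher and 0 lower in HGV against LGV, with medians of 0.36, -0.37, -0.14 and 0.49. In both glucose comparisons 0 genes of mitosis were lower by DESeq2 or at an unadjusted p under 0.05. UBE2C rose 1.70-fold and TOP2A 1.57-fold with glucose (edgeR FDR = 0.00278 and 0.00748). PLK1 fell by 0.66 on the log2 scale with VPA in low glucose and by 0.85 in high glucose (edgeR FDR = 0.00192 and 0.000559). CDC20 was 1.75-fold higher in HGV than in LGV (edgeR FDR = 0.000111) and fell in LGV against LG (log2 -0.73, edgeR FDR = 0.000680). It was not called in HG against LG (log2 0.36) or in HGV against HG (log2 -0.26). KIF20A was 1.77-fold higher in HGV than in LGV (edgeR FDR = 7.18e-05) and fell in LGV against LG (log2 -0.50, edgeR FDR = 0.0282). CCNB2 fell in HGV against HG (log2 -0.75, edgeR FDR = 0.000299) and was higher in HG than in LG (log2 0.65, edgeR FDR = 0.0139).

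The list of 21 regulators of the inhibitors held 1 higher and 6 lower genes in HG against LG, 5 and 4 in LGV against LG, 7 and 5 in HGV against HG, and 3 and 11 in HGV against LGV, with medians of -0.21, -0.01, -0.13 and -0.36. Among all genes tested, 12.0% were higher and 12.7% lower in HG against LG. The other comparisons had 21.2% to 25.8% higher and 19.5% to 20.2% lower. KLF4, a factor that can activate CDKN1A, had the largest called changes among the genes named from these lists. Its mean was 5.64 CPM in LG, 0.821 CPM in HG, 15.1 CPM in LGV and 2.12 CPM in HGV. It fell with high glucose 6.71-fold without VPA (edgeR FDR = 1.08e-06) and 7.29-fold with it (edgeR FDR = 9.58e-08). With VPA it rose 2.71-fold in low glucose (edgeR FDR = 9.10e-05), and it rose in high glucose too (log2 1.35, edgeR FDR = 0.00208). KLF6, a relative, was 1.82-fold lower in HGV than in LGV (edgeR FDR = 7.39e-05) and lower in HG than in LG (log2 -0.40, edgeR FDR = 0.0206). Unlike KLF4, KLF6 fell in HGV against HG (log2 -0.48, edgeR FDR = 0.00272) and was not called in LGV against LG (log2 -0.05). TGFB1, whose signal can induce CDKN2B, was 1.99-fold lower in HG than in LG (edgeR FDR = 0.000174). TGFB1 was also lower in HGV than in LGV (log2 -0.74, edgeR FDR = 0.000336). With VPA, TGFB1 rose in low glucose (log2 0.51, edgeR FDR = 0.0269) and in high glucose (log2 0.80, edgeR FDR = 4.25e-05). CUL1, the scaffold of the ligase that marks CDKN1B for degradation, fell 2.24-fold with VPA in low glucose (edgeR FDR = 3.57e-06) and 3.03-fold in high glucose (edgeR FDR = 1.61e-07). SKP2 and SKP1, also on this list, rose in HGV against HG (log2 0.78 and 0.54, edgeR FDR = 0.000132 and 0.00435). In LGV against LG they were not called (log2 0.36 and 0.25). CKS1B fell in LGV against LG (log2 -0.51, edgeR FDR = 0.0445) and was not called in HGV against HG (log2 -0.24). CBX7, a Polycomb protein that represses CDKN2A, rose 2.06-fold with VPA in high glucose (edgeR FDR = 1.50e-05). It rose with VPA in low glucose as well (log2 0.94, edgeR FDR = 0.00160). CBX7 was also higher in HG than in LG (log2 0.76, edgeR FDR = 0.00542) and in HGV than in LGV (log2 0.83, edgeR FDR = 0.000279). BMI1, also on this list, fell in HGV against HG (log2 -0.61, edgeR FDR = 0.00735). It was lower in HGV than in LGV (log2 -0.80, edgeR FDR = 0.000111) and not called otherwise. EZH2 rose with VPA in low and high glucose (log2 0.74 and 0.51, edgeR FDR = 0.000874 and 0.00212). It was lower in HG than in LG and in HGV than in LGV (log2 -0.44 and -0.69, edgeR FDR = 0.0363 and 0.000599). RNF2 was not called in the 4 comparisons. These are changes of mRNA, and protein levels were not measured in the data used here.

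Of the 7 listed neighbours of CDKN1C and of the CDKN2A and CDKN2B locus, 6 were tested in HG against LG, with 0 higher and 1 lower. The other comparisons tested 7, with 1 higher and 0 lower in LGV against LG, 1 and 2 in HGV against HG, and 0 and 1 in HGV against LGV. Over all genes tested, 12.0% were higher and 12.7% lower in HG against LG, and in the other comparisons 21.2% to 25.8% were higher and 19.5% to 20.2% lower. PHLDA2, an imprinted gene next to CDKN1C, was lower with high glucose by 1.48 on the log2 scale without VPA (edgeR FDR = 0.000151). It was lower in HGV than in LGV as well (log2 -1.17, edgeR FDR = 5.66e-05) and rose in HGV against HG (log2 0.85, edgeR FDR = 0.00178). MTAP, next to CDKN2A, fell by 0.60 on the log2 scale in HGV against HG (edgeR FDR = 0.000938). In this list DESeq2 also called 0 genes higher in HG against LG and in HGV against LGV and 0 lower in LGV against LG, where 1, 0 and 0 genes had an unadjusted p under 0.05.

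**Figure D5:**
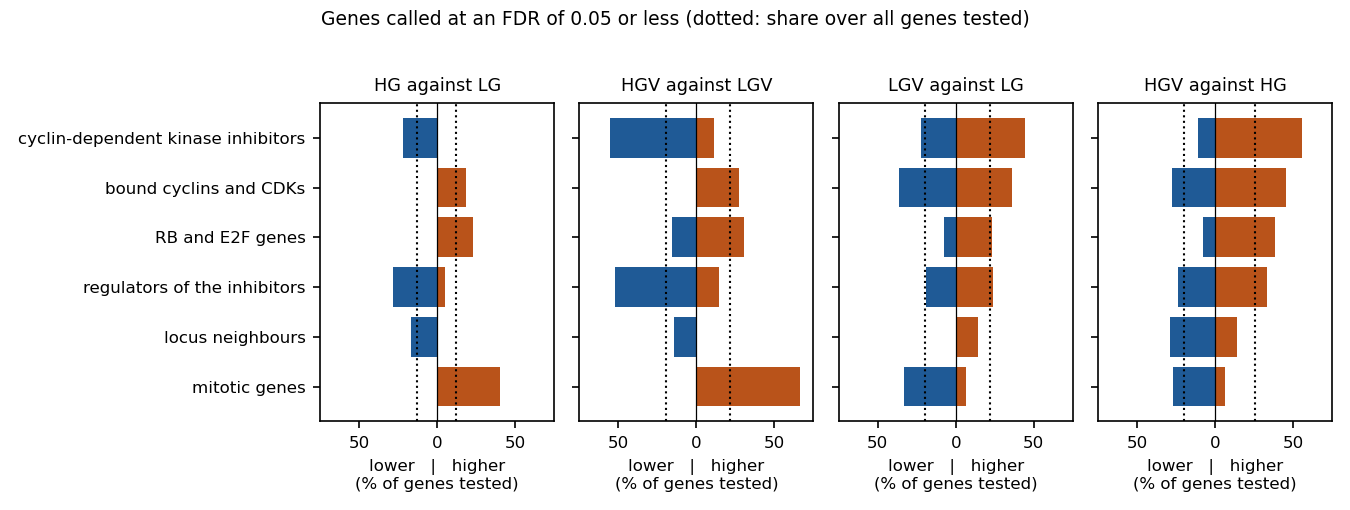
Share of the tested genes of each list (rows) called higher (right of 0) or lower (left of 0) in each comparison, in percent, at an FDR of 0.05 or less; dotted lines give the share over all genes tested. The inhibitors lie past the dotted line to the right in both VPA comparisons (4 and 5 of 9) and to the left in HGV against LGV (5 of 9), and the mitotic genes lie to the right in both glucose comparisons (6 and 10 of 15).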

How the data were processed

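RNA was selected for poly(A) tails and sequenced as single-end reads of 50 nt. Per the labels and the study's methods, the authors aligned reads to GRCh37 with STAR, counted them per gene with featureCounts and deposited raw counts for 16389 genes, without normalization, having left out genes with a mean under 10 reads. The library kit keeps the strand, but whether counting used it is not stated.

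Counts were tested with edgeR 4.0.16 (R 4.3.3; TMM, quasi-likelihood F test) on genes with a mean of at least 10 reads in the libraries compared. Benjamini-Hochberg adjustment covered all genes tested, and an FDR of at most 0.05 made a call. Each of the 4 comparisons used 6 libraries and the interaction 12. The script was tested on simulated data. Levels per length used GENCODE canonical transcripts on GRCh37. Replicates were distinct libraries, since the counts of no pair agreed within sampling noise. Replicate numbers were not used as pairs, since in no comparison did all 3 same-numbered pairs correlate above 0.1. The labels name no batch.

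The members and lists were chosen with earlier results of these data known. Named genes are the inhibitors, the 2 called genes with the largest change per list and comparison (with mean log2 CPM not under 1), and the 3 genes nearest to each inhibitor in pattern. ALB, CDKN2B-AS1, MTRFR and the markers of other cells were named to check the cells and the overlaps. CCND1, CCNE1, CDK4, CDK6, SKP1, SKP2, CKS1B, BMI1, EZH2 and RNF2 were named to set other genes of the same lists beside CCND2, CCND3, CUL1 and CBX7. Alternatives were DESeq2 size factors, library size only, no filter, DESeq2 1.42.0 with its Wald test, a replicate block, 1 fit of 12 libraries, an FDR of 0.01 and leaving out each library. Length from all exons was added after seeing the data. Promoters came from a RefSeq table. A comparison of the inhibitor proteins was not made here. A further context list of the design is not reported here.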

Additional observations from a re-analysis of the deposited data

Results flagged for a closer look

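CDK2AP2 had VPA responses of opposite sign at the 2 glucose levels. Its log2 fold change was -0.41 in LGV against LG and 0.65 in HGV against HG, and the test of the difference itself (1.07, SE 0.18, edgeR FDR = 0.0374) passed the threshold. All 3 LGV libraries were below all 3 LG libraries, and all 3 HGV libraries were above all 3 HG libraries. The fall in low glucose and the interaction each lost their call in several fits without 1 library, and the rise in high glucose lost it in none of them. With 3 libraries per group, single samples far from the rest were not tested for.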

How the results depend on the processing

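Over 45 log2 fold changes of inhibitor genes, 585 alternative values were computed, of which 535 kept direction and side of the threshold, 28 lost a call, 13 gained one and 9 changed sign. For context genes 430 of 432 stayed and 2 lost a call. Scaling by library size alone moved the median log2 fold change of all genes to 0.11 (HG against LG), 0.16 (LGV against LG), 0.15 (HGV against HG) and 0.10 (HGV against LGV), and the genes called higher and lower from 1854 and 1959 to 2172 and 1297, from 3461 and 3177 to 4500 and 1956, from 4184 and 3272 to 5182 and 2424, and from 3444 and 3160 to 3761 and 2309. It left 1 lower inhibitor gene in HG against LG, 1 in LGV against LG and 0 in the interaction. An FDR of 0.01 left 1 lower in HG against LG, 1 lower in LGV against LG, 0 higher in HGV against LGV and 0 in the interaction. It also removed the calls of CDKN1A in HGV against HG (edgeR FDR = 0.0151) and of CDKN2A in HGV against LGV (edgeR FDR = 0.0273). DESeq2's size factors and DESeq2's Wald test gave 2 lower genes in HGV against HG, with CDKN1B added. Leaving out single libraries gave 1 to 4 lower genes in HG against LG (1 without LG replicate 1, LG replicate 2 or HG replicate 1, and 4 without LG replicate 3), 1 to 2 lower in LGV against LG (1 without LG replicate 1, LGV replicate 2 or LGV replicate 3), 0 to 1 higher in HGV against LGV (0 without LGV replicate 2 or HGV replicate 3) and 0 to 1 higher in the interaction (1 without LG replicate 2, LG replicate 3 or LGV replicate 1). The same fits gave 4 to 5 higher genes in LGV against LG, 4 to 5 higher in HGV against HG and 4 to 6 lower in HGV against LGV. None of the 9 values that changed sign was called. They were CDKN1B in HG against LG with library size only (0.052) and without LG replicate 2 (range over single libraries left out -0.082 to 0.030), CDKN1B in LGV against LG with library size only (0.086) and without LGV replicate 1 (-0.13 to 0.00015), CDKN2B in HG against LG without LG replicate 3 (-0.051 to 0.30), CDKN2A in HGV against HG without HGV replicate 2 (-0.014 to 0.42), and the interaction of CDKN1A without LG replicate 3, LGV replicate 2 or HGV replicate 3 (-0.48 to 0.18). The causes were not tested. With replicate number as a block, the replicate block called CDKN1A in LGV against LG (0.58) and in HG against LG (-0.45) and changed no other call of an inhibitor gene; same-numbered libraries share only a number. Levels per length moved with the length chosen.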

Other observations

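Within groups, single libraries were the lowest for many inhibitor genes at once. HG replicate 1 was the lowest of its group for 8 of 9, all but CDKN1B. LG replicate 3 and HGV replicate 3 were each the lowest of their group for 6 of 9, the same 6 in both (CDKN1A, CDKN2A, CDKN2B, CDKN2D, CDK2AP1 and CDK2AP2), and CDKN3 was highest in both. LGV replicate 1 was the lowest for 6 of 9, CDKN3 and CDK2AP2 being highest in it. These are values of single libraries in groups of 3 and were not tested.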
